A study of Mus musculus with 6 samples.

Results

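The 10 genes described here encode enzymes and carriers that remove superoxide and peroxides outside the glutathione peroxidases and transferases. They are the superoxide dismutase genes Sod2 and Sod3, catalase (Cat), the peroxiredoxin genes Prdx1, Prdx2, Prdx3, Prdx5 and Prdx6, and the thioredoxin genes Txn1 and Txn2. They were chosen by gene name, by a rule that uses no measured value though earlier results of these data were known, and each of the 10 matched 1 of the 41388 gene identifiers in the counts table. All 10 passed the filter on low counts, as did 12988 identifiers in all.

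The samples were 3 liver libraries from Atp7b-/- mice and 3 from wild type mice, all C57BL x 129S6/SvEv, 6 weeks old and fed a diet with 16 ppm copper, 100 ppm zinc and 235 ppm iron. Atp7b encodes the copper exporter of hepatocytes, lost in Wilson disease, and the sources used here do not say which exons were targeted. Atp7b-/- replicate 3 and wild type replicate 1 were sequenced paired-end, and Atp7b-/- replicates 1 and 2 and wild type replicates 2 and 3 single-end, with reads of 54 bases. The single-end libraries came first and the paired-end ones were a later run. By the labels, the single-end Atp7b-/- libraries are male and the single-end wild type libraries female, while the paired-end Atp7b-/- library is female and the paired-end wild type library male.

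Superoxide is first turned into hydrogen peroxide by a superoxide dismutase, and the peroxide is then removed by catalase or a peroxiredoxin. Most peroxiredoxins are reduced again by thioredoxin, which takes its electrons from NADPH through thioredoxin reductase. In hepatocytes, catalase fills the peroxisomes, while Sod2, Prdx3, Txn2 and a thioredoxin reductase of their own work in the mitochondria. Free copper ions can form oxygen radicals from hydrogen peroxide, and livers without Atp7b store copper.

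Total counts were 6746192 to 25973968 in Atp7b-/- libraries and 5919389 to 23651080 in wild type libraries. The 10 genes together held 0.378% to 0.561% of the counts in Atp7b-/- and 0.311% to 0.57% in wild type libraries. Levels are given as CPM, the counts scaled by TMM to 1000000 per library. Atp7b, the targeted gene, had 19.2, 13.7 and 13.3 CPM in Atp7b-/- replicates 1 to 3, and 25.3, 85.2 and 59.7 CPM in the 3 wild type libraries. It fell by 1.73 on the log2 scale (SE 0.30, edgeR adjusted p = 0.02), with no overlap of the genotypes. This call was lost when Atp7b-/- replicate 1 (adjusted p = 0.0969), Atp7b-/- replicate 2 (0.0664) or wild type replicate 3 (0.0686) was left out. It was also lost without sequencing layout in the model (edgeR adjusted p = 0.514) and with labelled sex in place of layout. Wild type replicate 1 stood apart in 4 smooth muscle markers, with a summed level of 687 CPM, against 10.2 to 15.1 CPM in Atp7b-/- and 17.8 to 38.0 CPM in the other two wild type libraries. The 7 hepatocyte markers summed to 56140 to 75548 CPM in Atp7b-/- and 78398 to 112273 CPM in wild type libraries. They were thus abundant in every library, but lower in Atp7b-/-, with ranges that did not overlap. Of the 7 markers, 5 had a negative and 2 a positive change, with a median of -0.28 on the log2 scale. No single marker was called, and the part of these shifts in the results below was not tested. In bulk tissue, fewer cells of a type and less RNA per cell cannot be told apart.

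None of the 10 genes passed the test between Atp7b-/- and wild type livers. Over all genes 2.49% were called, 1.9% higher and 0.585% lower in Atp7b-/-. The model was edgeR's quasi-likelihood fit of genotype beside sequencing layout, with Benjamini-Hochberg adjustment over the 12988 genes and a threshold of 0.05. DESeq2 and limma-voom also called 0 of the 10, and each gave 1 of 10 at an unadjusted p under 0.05. Of all 12988 genes, DESeq2 called 770 and limma-voom 396. An unadjusted p under 0.05 was given to 2023 genes by DESeq2 and to 2103 by limma-voom. At an unadjusted p under 0.05 edgeR gave 1 of 10, Sod2, while 14.5% of all genes had such a p. The log2 fold changes ran from -0.49 to 0.42, with 7 positive and 3 negative and a median of 0.18. Over all genes tested, the median was -0.01 and 49.1% were positive. For 9 of the 10 genes the 95% interval of the change lay within 2-fold in either direction. Sod3 was the exception.

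**Figure D1:**
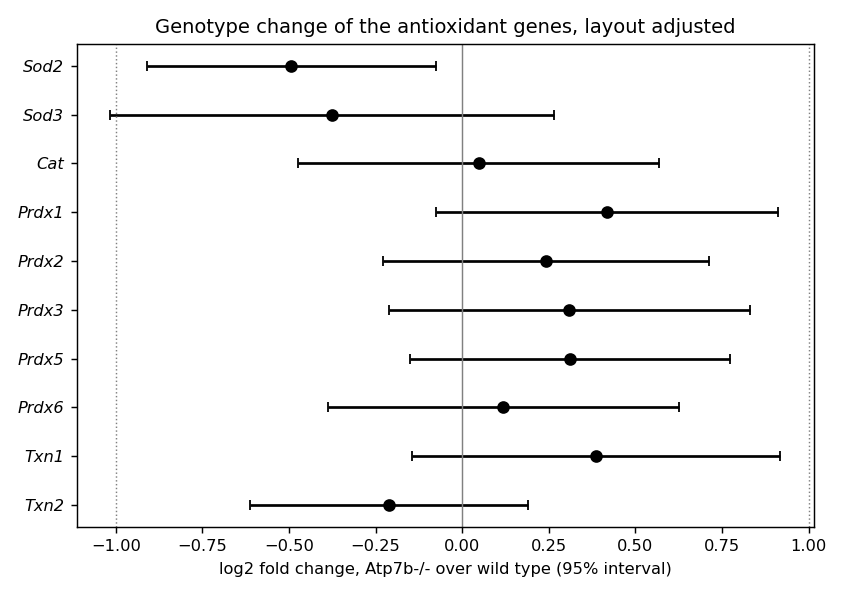
Log2 fold change of each gene, Atp7b-/- over wild type, with layout in the model; points are the fitted values and bars the 95% intervals, not adjusted for the number of genes. The dotted lines mark 2-fold; the bar of Sod2 is the only one that excludes 0, and the bar of Sod3 the only one that passes 2-fold.

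The superoxide dismutases come first in the chain. Sod2 (ENSMUSG00000006818, chromosome 17, 13006846 to 13040063, plus strand, GRCm38) encodes the manganese enzyme of the mitochondrial matrix. Its level was 173, 163 and 126 CPM in Atp7b-/- replicates 1 to 3, against 189, 208 and 249.7 CPM in the wild type libraries in the same order. Every Atp7b-/- library was below every wild type library, which was true of no other gene of the 10; over all genes the ranges did not overlap in 8.51%, 3.28% lower and 5.23% higher in Atp7b-/-. The means were 154 ± 24.7 CPM in Atp7b-/- and 216 ± 30.9 CPM in wild type (SD, n = 3 each). The log2 fold change was -0.49 (SE 0.18, 95% interval -0.91 to -0.08), a level 29% lower, and in edgeR's test the adjusted p was 0.257. The change was -0.59 in the paired-end pair and -0.44 in the single-end libraries. Over the alternatives tried, it lay between -0.57 and -0.43 and the adjusted p between 0.084 and 1.

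The gene most like Sod2 over the 6 libraries was Kdm2b, with a Pearson r of 0.99 in log2 CPM. The next were 4921531C22Rik and Wdr4, each also with an r of 0.99. Of 12308 genes compared, 162 had an r over 0.9 with Sod2. All these values share the same 6 libraries and their layouts, and they are given as a description.

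Sod3 (ENSMUSG00000072941, chromosome 5, 52363791 to 52371418, plus strand) encodes the secreted superoxide dismutase, which carries copper and zinc. It had 129, 164 and 35.2 CPM in Atp7b-/- replicates 1 to 3, against 25.05, 239 and 269 CPM in wild type livers 1 to 3. Both paired-end libraries were far below all 4 single-end ones. Within the layouts the genotypes moved in opposite directions: the paired-end Atp7b-/- library was above its wild type partner (difference 0.49 in log2 CPM), and both single-end Atp7b-/- libraries were below both wild type ones (-0.80). The fit over all libraries gave -0.38 (SE 0.28, 95% interval -1.02 to 0.26; edgeR adjusted p = 0.604). The single-end libraries alone gave -0.79 (SE 0.24, edgeR adjusted p = 0.228). Leaving out either paired-end library gave -0.78 (without Atp7b-/- replicate 3) and -0.79 (without wild type replicate 1). These leave-outs nearly repeat the single-end fit, for every gene, because the other paired-end library is then fitted exactly. They are no separate check. The Sod3 change was -0.13 and -0.32 when Atp7b-/- replicate 1 or replicate 2 was left out, and -0.32 and -0.22 when wild type replicate 2 or replicate 3 was. In both layouts the higher Sod3 level was in the library or libraries labelled female.

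**Figure D2:**
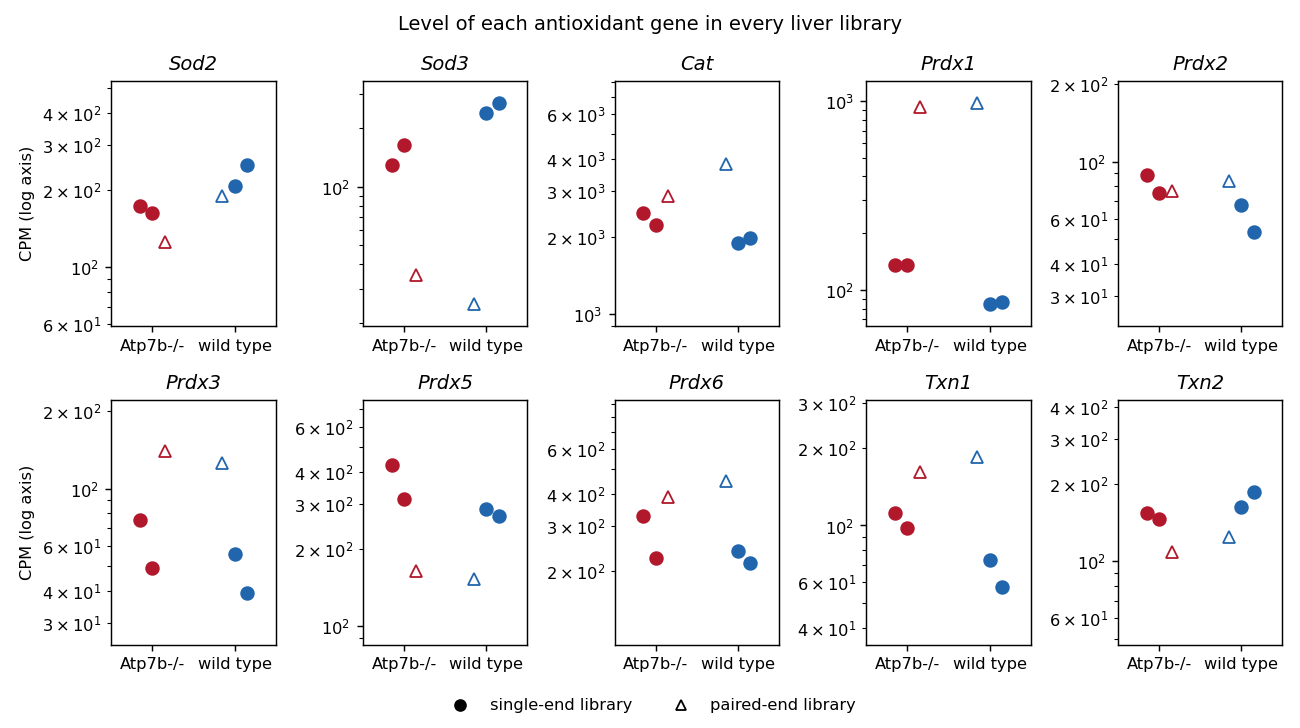
CPM of each gene in every library, on log axes that differ between panels; Atp7b-/- on the left and wild type on the right, filled circles for single-end and open triangles for paired-end libraries. Sod2 is lower in all 3 Atp7b-/- libraries, while in Prdx1 and Sod3 the triangles stand far from the circles in both genotypes.

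Catalase breaks down hydrogen peroxide without a reductant. Cat (ENSMUSG00000027187, chromosome 2, 103453849 to 103485160, minus strand) had 2470 CPM, 2211 CPM and 2882 CPM in Atp7b-/- replicates 1 to 3, against 3848 CPM, 1879 CPM and 1979 CPM in the 3 wild type livers. The paired-end wild type library was the highest, and the 2 single-end wild type libraries were the lowest. The mean was 2521 ± 338 CPM in Atp7b-/- and 2569 ± 1109 CPM in wild type (SD, n = 3 each), with a log2 fold change of 0.05 (SE 0.23, 95% interval -0.47 to 0.57; edgeR adjusted p = 0.953). The change was 0.29 without Atp7b-/- replicate 3 and 0.28 without wild type replicate 1, and it turned negative without Atp7b-/- replicate 1, wild type replicate 2 or wild type replicate 3, at -0.047, -0.040 and -0.0047 in turn. Cat took 57.4% to 61.7% of the counts of the 10 genes in Atp7b-/- and 57.0% to 62.4% in wild type libraries.

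Among the peroxiredoxins, all 5 had a positive fitted change and none was called. Prdx1 (ENSMUSG00000028691, chromosome 4, 116685544 to 116700822, plus strand), an abundant cytosolic member, had 135, 136 and 936 CPM in Atp7b-/- replicates 1 to 3, against 984, 84.1 and 87.1 CPM in the wild type libraries in the same order. The single-end Atp7b-/- libraries were above the single-end wild type ones, and the paired-end pair stood the other way round. The log2 fold change of Prdx1 was 0.42 (SE 0.22, 95% interval -0.07 to 0.91; edgeR adjusted p = 0.435), and with only the single-end libraries fitted it was 0.67 (edgeR adjusted p = 0.252). Leaving out only Atp7b-/- replicate 3 gave 0.68, and only wild type replicate 1 gave 0.67, again near repeats of the single-end fit.

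NRF2, the factor of the oxidative stress response, binds the antioxidant response element, whose core is TGACNNNGC, and Prdx1 and Txnrd1 are among its known targets. The RefSeq table of promoters (GRCm38.p6) held a window for 8 of the 10 genes, and the core was sought on both strands in the 250 bases before each start. It was found in 1 of the 8, Prdx1, and in 10.2% of 32851 windows of all genes. Of 3 listed starts of Txnrd1, 1 held it. The window of Srxn1, the sulfiredoxin gene described below, held 0. In the list of thioredoxin partners and repair reductases, also described below, 10.7% of 28 windows held the core, near the share of all genes. The share was 13.6% of 103 windows over all the related lists below. It ran from 0 of 7 windows for superoxide sources to 28.6% of 14 windows for redox regulators. The stretches of Prdx1 and Txnrd1 are shown because they set Prdx1 beside the gene of the thioredoxin reductase that serves it. The capitals mark the core, here read on the opposite strand, with 25 bases on each side, at chr4:116685441-116685499 for Prdx1 and chr10:82859089-82859147 for Txnrd1, both on the plus strand. The core spans 133 to 125 bases before the RefSeq start in Prdx1 and 92 to 84 in Txnrd1. This RefSeq start of Prdx1 lies inside the gene span given above, which is from GENCODE.
Prdx1: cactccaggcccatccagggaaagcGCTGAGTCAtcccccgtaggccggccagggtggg
Txnrd1: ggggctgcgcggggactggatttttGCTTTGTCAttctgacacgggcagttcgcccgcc
A match describes these letters and is no evidence of binding. Neither Prdx1 nor Txnrd1 passed the genotype test, and no match in the other 7 windows says only that these letters are not there.

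Prdx2 (ENSMUSG00000005161, chromosome 8, 84969587 to 84974834, plus strand), also cytosolic and abundant in red blood cells, had 88.3, 75.8 and 76.6 CPM in Atp7b-/- replicates 1 to 3, against 84.4, 67.8 and 53.4 CPM in wild type livers 1 to 3. The genotypes overlapped, and the change was 0.24 (SE 0.21; edgeR adjusted p = 0.66). It was 0.14 without Atp7b-/- replicate 1, 0.45 without Atp7b-/- replicate 3, 0.44 without wild type replicate 1 and 0.09 when wild type replicate 3 was left out. The 8 red blood cell markers summed to 237 to 344 CPM in Atp7b-/- and 66.6 to 220.1 CPM in wild type libraries, ranges that did not overlap. Of 5 of these markers tested, 5 had a positive change and none was called. The part of blood in the Prdx2 values was not tested. Prdx2 exons also overlap those of Junb by 173 bases and Rnaseh2a by 177 bases on the opposite strand, and the sources used here give no strand setting for the counting.

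Prdx3 (ENSMUSG00000024997, chromosome 19, 60864051 to 60874556, minus strand), the mitochondrial peroxiredoxin, had 75.2, 49.0 and 139.7 CPM in Atp7b-/- replicates 1 to 3, against 125.6, 55.4 and 39.3 CPM in the 3 wild type livers. Its change was 0.31 (SE 0.23; edgeR adjusted p = 0.6), with the paired-end libraries highest in each genotype. The Prdx3 change was 0.11 without Atp7b-/- replicate 1, 0.46 without Atp7b-/- replicate 2 and 0.16 when wild type replicate 3 was left out. Prdx5 (ENSMUSG00000024953, chromosome 19, 6906697 to 6910106, minus strand), found in mitochondria, peroxisomes and cytosol, had 427, 314 and 164 CPM in Atp7b-/- replicates 1 to 3, against 152, 286 and 269.7 CPM in the wild type libraries in the same order. Here the paired-end libraries were the lowest in each genotype, and the change was also 0.31 (SE 0.20; edgeR adjusted p = 0.539), but 0.16 without Atp7b-/- replicate 1. Prdx5 and Prdx3 were the 2 peroxiredoxins with a positive difference in both layouts. The exons of Prdx5 overlap those of Trmt112 by 409 bases on the opposite strand.

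Prdx6 (ENSMUSG00000026701, chromosome 1, 161240112 to 161251219, minus strand) encodes a peroxiredoxin that also acts on phospholipids. It had 329, 225 and 388 CPM in Atp7b-/- replicates 1 to 3, against 448, 239.6 and 216 CPM in wild type livers 1 to 3. The genotypes overlapped in both the pooled and the single-end libraries, with a change of 0.12 (SE 0.22, 95% interval -0.39 to 0.62; edgeR adjusted p = 0.863). The sign turned to -0.08 without Atp7b-/- replicate 1, and the change was 0.23 when Atp7b-/- replicate 2 was left out, 0.03 when wild type replicate 3 was, and 0.29 without either paired-end library.

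The thioredoxins, which hand electrons to most peroxiredoxins, had fitted changes of opposite sign. Txn1 (ENSMUSG00000028367, chromosome 4, 57943373 to 57956411, minus strand), the cytosolic form, had 112, 97.8 and 162 CPM in Atp7b-/- replicates 1 to 3, against 185, 73.1 and 57.6 CPM in the 3 wild type livers. As with Prdx1, the single-end Atp7b-/- libraries were the higher and the paired-end Atp7b-/- library the lower. The change of Txn1 was 0.39 (SE 0.23, 95% interval -0.14 to 0.92; edgeR adjusted p = 0.504), and with only the single-end libraries fitted it was 0.68 (edgeR adjusted p = 0.279). Leaving out only Atp7b-/- replicate 3 gave 0.69 and only wild type replicate 1 gave 0.68, again near repeats of the single-end fit. Leaving out only wild type replicate 3 gave 0.21. Txn2 (ENSMUSG00000005354, chromosome 15, 77915047 to 77929006, minus strand), the mitochondrial form, had 155, 146 and 109 CPM in Atp7b-/- replicates 1 to 3, against 124, 163 and 186 CPM in the wild type libraries in the same order. It was lower in Atp7b-/- within each layout, by similar amounts (-0.20 paired-end and -0.22 single-end), and the fitted change was -0.21 (SE 0.18; edgeR adjusted p = 0.65). Among Sod2, Prdx3 and Txn2, whose products work in mitochondria, Sod2 and Txn2 thus had negative fitted changes and Prdx3 a positive one. Prdx5, found in mitochondria and elsewhere, also had a positive one.

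The genotype differences were set apart by layout because each sequencing run had libraries from Atp7b-/- and from wild type mice. Within a layout, however, the genotypes also differ in labelled sex. A change within a layout, such as the single-end changes of Sod3, Prdx1 and Txn1, thus cannot be told apart from a difference between the sexes. The fit of genotype beside layout has no term for sex, so its genotype changes, those of the called genes included, can hold a part of such a difference. In the single-end libraries 7 of 10 genes had a higher mean log2 CPM in Atp7b-/-, and in the paired-end pair 3 of 10 were higher. The shares of all genes higher in Atp7b-/- in each layout were not taken. In the fit of the single-end libraries alone, the median change of the 12205 genes tested was -0.01. The ranges of the 2 single-end Atp7b-/- and the 2 single-end wild type libraries did not overlap for 8 of 10 genes, all but Prdx3 and Prdx6, where 46.1% of all genes had ranges that did not overlap. The sign was opposite in the layouts for 6 of 10 genes (41.9% of all genes). In 5 of these, Cat, Prdx1, Prdx2, Prdx6 and Txn1, the mean log2 CPM was higher in the library or libraries labelled male in both layouts (21.4% of all genes). In Sod3 it was higher in those labelled female. For Prdx6 this held for the single-end mean only, as Atp7b-/- replicate 2 (male, 225 CPM) was below wild type replicate 2 (female, 239.6 CPM). Sod2, Prdx3, Prdx5 and Txn2 had the same sign in both layouts, as did 58.1% of all genes.

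The difference of the genotype change between layouts was tested as an interaction, and in this design labelled sex gives the identical term. In edgeR's quasi-likelihood test it called 0 of the 10 genes, against 0.0154% of all genes, and limma-voom also called 0 of 10. At an unadjusted p under 0.05 it gave 1 of 10, Sod3, against 4.57% of all genes. Sod3 had an interaction of 1.28 on the log2 scale (SE 0.42, adjusted p = 0.987), Txn1 one of -0.87 (SE 0.42) and Prdx1 one of -0.74 (SE 0.40). The paired-end libraries are 1 per genotype and are fitted exactly in this model, so these errors come from the single-end libraries and the spread shared across genes.

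**Figure D3:**
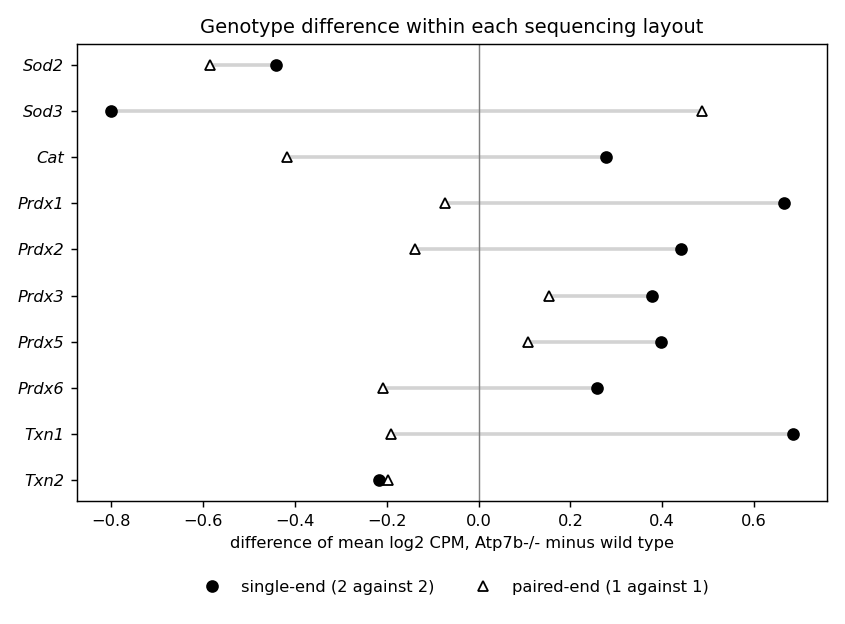
Difference in mean log2 CPM, Atp7b-/- minus wild type, within the single-end libraries (filled circles, 2 against 2) and within the paired-end pair (open triangles, 1 against 1). The symbols lie on opposite sides of 0 for 6 genes and on the same side for Sod2, Prdx3, Prdx5 and Txn2.

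The fitted differences between layouts were larger than those between genotypes for these genes, Sod2 and Prdx2 aside. In the same edgeR fit 7 of 10 genes differed between paired-end and single-end libraries, 5 higher and 2 lower in paired-end, against 52.8% of all genes (27.2% higher, 25.7% lower). Prdx1 was 8.99-fold higher in paired-end libraries (log2 3.17, SE 0.22, adjusted p = 6.77e-05), Prdx3 2.44-fold and Txn1 2.12-fold (adjusted p = 0.00199 and 0.00526). Sod3 was lower by 2.65 on the log2 scale (a level 0.159 times that of single-end libraries, adjusted p = 0.000402) and Prdx5 by 1.02 (adjusted p = 0.00519). Cat and Prdx6 were 1.58-fold and 1.67-fold higher (adjusted p = 0.0429 and 0.025). Sod2, Prdx2 and Txn2 did not pass the layout test. The share of counts from mitochondrially encoded genes also differed between layouts, being 8.14% and 7.74% with paired-end reads, against 2.5% to 4.15% with single-end reads. It was also higher in Atp7b-/- within each layout, at 8.14% in the paired-end Atp7b-/- library, against 7.74% in its wild type partner, and 4.15% and 4.09% in the single-end Atp7b-/- libraries, against 2.57% and 2.5% in the single-end wild type ones. Its part in the layout and genotype differences was not tested.

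Reads that fit several genes can be split or dropped in counting, so the share of each gene's 54-base words, the length of a read, that recur exactly in transcripts of other genes was taken. By GENCODE's transcripts this share was 7.76% for Prdx1, 4.14% for Prdx2, 2.1% for Txn1 and 0.814% for Txn2. It was 0 for Sod3, Cat, Prdx3, Prdx5 and Prdx6. For Sod2 it was 20.1%. The largest parts were shared with AC166110.4, a noncoding RNA gene (16.8% of the words), and with Rps6ka2 (15.3%), and no other gene shared more than 0.44%. The part of these genes in the Sod2 values was not tested. Genes overlapping a member were left out of this count, and matches with mismatches were not sought. How such reads were counted in each layout was not tested.

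Per length, catalase was the most abundant of the 10 transcripts in every library. On the scale of CPM per kb of exon, Cat averaged 965 ± 129 in Atp7b-/- and 983 ± 425 in wild type livers (SD, n = 3 each), and its range over the 6 libraries did not meet that of any other gene. Below it came, by the mean of all 6 libraries, Prdx1 (129), Prdx5 (126), Txn1 (109), Prdx6 (64.0), Prdx3 (54.6), Sod3 (38.4), Txn2 (35.0), Prdx2 (24.4) and Sod2 (18.5), all in CPM per kb. All neighbours below Cat overlapped in range, and the order held in all 6 libraries only for Txn1 above Prdx6 and Txn2 above Prdx2. The order also depended on layout. Prdx1 came next after Cat in the paired-end libraries, at 315 CPM per kb, but stood above only Prdx2 and Sod2 in the single-end ones, at 36.4. Sod3 was last in the paired-end libraries at 8.05 CPM per kb, while in the single-end ones, at 53.6, only Cat, Prdx5 and Txn1 stood above it. Lengths are those of all annotated exons together, which for Sod2 come to 10008 bases, so genes with long alternative exons stand lower on this scale than their main transcript would.

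**Figure D4:**
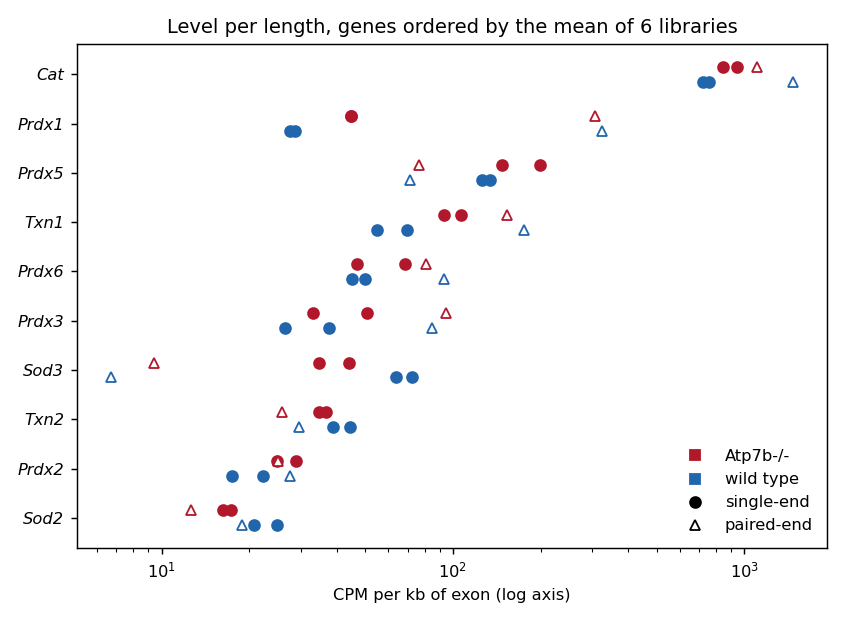
CPM per kb of exon in each library on a log axis, genes ordered by the mean of the 6 libraries; red is Atp7b-/- (upper row of each gene), blue wild type, circles single-end and triangles paired-end. Cat lies above all others in every library, and the paired-end triangles of Prdx1 and Sod3 lie far from their circles.

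Other genes of the same chemistry were followed in 7 lists: thioredoxin partners and repair reductases, other superoxide and peroxide enzymes, peroxisomal oxidases and import, superoxide sources, NADPH supply, redox regulators and mitochondrial matrix proteins. Of 93 listed genes 87 were tested, of which 2 rose, 1 fell and 84 did not pass (3.45% called, against 2.49% of all genes). The median change of the 87 was 0.02. The thioredoxin list had 1 of 20 tested members called and a median of 0.12, superoxide sources 1 of 9 and 0.14, and redox regulators 1 of 13 and -0.25. The other 4 lists had none called, with medians of -0.21 for other superoxide and peroxide enzymes (8 tested), 0.09 for peroxisomal genes (17), 0.13 for NADPH supply (8) and -0.04 for the mitochondrial matrix (12).

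The called partner of the peroxiredoxins was Srxn1, which encodes sulfiredoxin, the enzyme that repairs overoxidised peroxiredoxin. Srxn1 had 98.6, 125 and 79.7 CPM in Atp7b-/- replicates 1 to 3, against 41.6, 44.3 and 54.5 CPM in wild type livers 1 to 3, and rose 2.14-fold (log2 1.10, SE 0.20, edgeR adjusted p = 0.0204). The genotypes did not overlap, unlike those of Prdx1 and Prdx3, which sulfiredoxin acts on. Next in that list were Sesn2, a stress-induced sestrin, and Txnrd1, the cytosolic thioredoxin reductase. Sesn2 had a change of 1.09 (SE 0.25, adjusted p = 0.0641), with 23.1, 27.4 and 17.1 CPM in Atp7b-/-, against 5.76, 11.6 and 16.7 CPM in wild type. Txnrd1 had one of 0.57 (SE 0.19, adjusted p = 0.186), with 155, 166 and 220.4 CPM in Atp7b-/-, against 143, 98.7 and 122 CPM in wild type. For both genes the genotypes did not overlap, and Sesn2 was called under 4 of the 14 alternatives tried. Txnrd3, the thioredoxin-glutathione reductase, stood the other way, with 6.18, 8.56 and 5.23 CPM in Atp7b-/-, against 10.8, 13.7 and 8.53 CPM in wild type (change -0.77, SE 0.29, edgeR adjusted p = 0.251), and its genotypes overlapped. Txnrd2, the mitochondrial reductase, failed the filter on low counts and was not tested. It had 2, 1 and 11 counts in Atp7b-/- replicates 1 to 3, against 2, 0 and 0 in wild type livers 1 to 3. Exon overlaps and shared words were not sought for Txnrd2, and why its counts were so low was not tested.

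Aox1, an oxidase that releases superoxide and hydrogen peroxide, rose 2.76-fold, to 365 ± 114 CPM in Atp7b-/-, against 140 ± 79.2 CPM in wild type (log2 1.46, SE 0.30, edgeR adjusted p = 0.0449). Ppargc1b, a coactivator of mitochondrial genes, fell by 1.35 on the log2 scale (SE 0.22, edgeR adjusted p = 0.0129), with 17.5, 19.2 and 1.72 CPM in Atp7b-/- replicates 1 to 3, against 6.08, 39.8 and 41.3 CPM in the 3 wild type livers. It was lower in Atp7b-/- within each layout, although the genotypes overlapped across layouts. Nfe2l2, the gene of NRF2, had a change of 0.79 (SE 0.19, edgeR adjusted p = 0.0789), with 49.3, 52.9 and 129 CPM in Atp7b-/-, against 69.3, 35.3 and 25.8 CPM in wild type. Nfe2l2 was called under 2 of the 14 alternatives tried, with DESeq2 (adjusted p = 0.00755) and without the filter (edgeR adjusted p = 0.0106). The call of Srxn1 was lost without either paired-end library (edgeR adjusted p = 0.101 without Atp7b-/- replicate 3 and 0.0943 without wild type replicate 1), without Atp7b-/- replicate 2 (0.073) or without wild type replicate 2 (0.0634). That of Aox1 was lost when Atp7b-/- replicate 1 (0.116), replicate 2 (0.0692) or replicate 3 (0.129) or wild type replicate 1 (0.128) was left out, and with RLE scaling (0.0507). That of Ppargc1b was lost without Atp7b-/- replicate 3 (0.0983) or wild type replicate 1 (0.0883). Each of these calls was also lost without the layout term, with labelled sex in place of layout, and in the single-end libraries alone.

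Further members of small p in these lists did not pass. Xdh, the xanthine oxidoreductase, had 279.9, 264.8 and 115 CPM in Atp7b-/-, against 110.01, 82.0 and 124 CPM in wild type (change 0.96, SE 0.31, edgeR adjusted p = 0.181), so only the single-end Atp7b-/- libraries stood above all others. Xdh was called under 1 of the 14 alternatives tried, without the filter (edgeR adjusted p = 0.00115). Of the NADPH suppliers, Me1, malic enzyme, had a change of 0.55 (SE 0.22, edgeR adjusted p = 0.306) and Pgd, of the pentose phosphate pathway, one of 0.41 (SE 0.20, edgeR adjusted p = 0.406). The change of Me1 was 0.35 without wild type replicate 2. In the peroxisome, where catalase works, the import factor gene Pex2 had a change of 0.46 (SE 0.18, edgeR adjusted p = 0.28) and Uox, urate oxidase, one of -0.46 (SE 0.29, edgeR adjusted p = 0.524). The difference of Uox was -1.32 in the paired-end pair and -0.04 in the single-end libraries, and the change was -0.02 without Atp7b-/- replicate 3 and -0.03 without wild type replicate 1. Hao2, a peroxisomal hydroxyacid oxidase named after its values were seen, is the far left point of that list. It had 0.117, 0.281 and 22.8 CPM in Atp7b-/-, against 0.0914, 38.8 and 1.11 CPM in wild type (change -2.97, SE 4.51, edgeR adjusted p = 0.835), so all 3 higher values were in libraries labelled female. Prdx4, the peroxiredoxin of the endoplasmic reticulum, had a change of 0.28 (SE 0.17, edgeR adjusted p = 0.52), near those of the 5 other peroxiredoxins. Ppargc1a, a coactivator related to Ppargc1b, had one of -0.88 (SE 0.33, edgeR adjusted p = 0.267), and of -0.56 without either paired-end library.

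**Figure D5:**
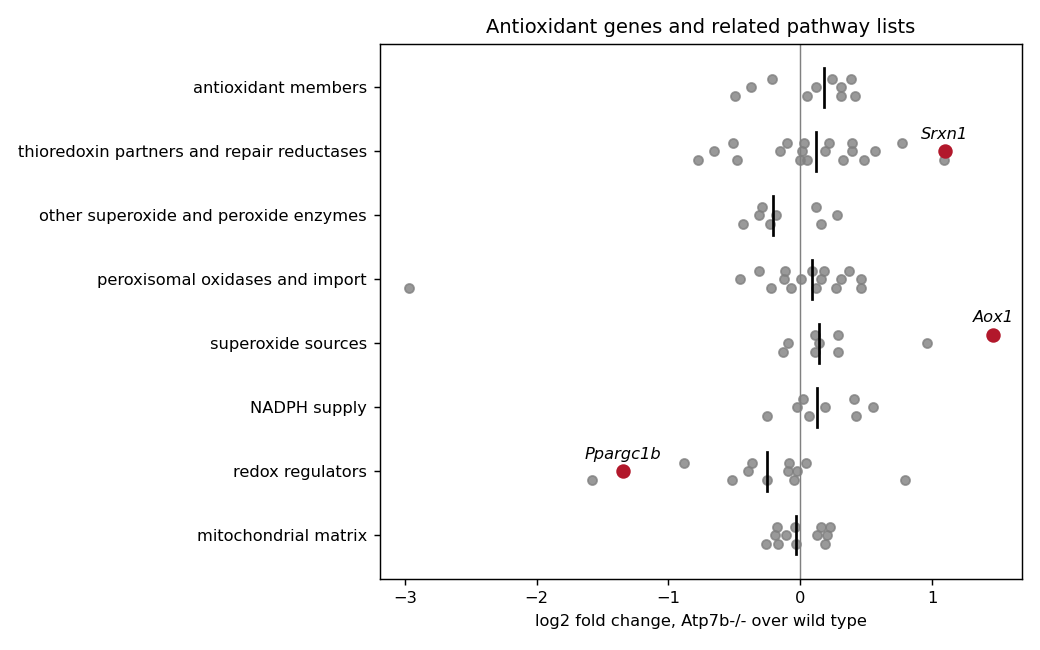
Log2 fold change, Atp7b-/- over wild type, of every tested gene in the 10-gene set (top) and in the 7 related lists; black bars are list medians and red points the called genes. The 10 genes lie between -0.49 and 0.42, while the called genes Srxn1 and Aox1 stand to the right of them and Ppargc1b to the left.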

How the data were processed

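Liver RNA was sequenced on the Illumina GAIIx, per the labels' protocols. The authors deposited raw counts per Ensembl gene; STAR 2.4, featureCounts, edgeR 3.8 and the build GRCm38 are named, per the submitters' processing notes. The sources used here give no annotation release, strand setting, or rule for multi-mapping reads and read pairs. Names, positions and exon lengths came from GENCODE M21, which named 40340 of 41388 identifiers.

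From the counts, edgeR 4.0.16 in R 4.3.3 was run with TMM scaling, its expression filter (minimum count 10), robust quasi-likelihood estimation of genotype beside layout, and Benjamini-Hochberg adjustment. Standard errors are the log2 fold change over the square root of F, and intervals use the fit's t quantile. DESeq2 1.42.0 and limma 3.58.1 (voom) were alternatives. Within-layout differences use log2 CPM with a prior count of 2. The scripts were tested on simulated data.

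Libraries were grouped by labelled genotype. Replicate numbers follow deposition order, and the labels do not state whether libraries are from different animals, so p-values measure the spread between libraries. Libraries of a group differed by more than sampling noise (chi-square divided by genes, 34.8 to 448). The members and lists were chosen with earlier results of these data known. Named genes are the members, Atp7b, the called genes and those of smallest p in each related list, and 3 genes most like Sod2; not every gene so named is given in the text.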

Additional observations from a re-analysis of the deposited data

How the results depend on the processing

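None of the 10 genes was called under any of the 14 alternatives. Of 140 member results, 134 kept their sign and 6 changed it: Cat without the layout term (-0.027), with labelled sex in place of layout (-0.069), and in 3 leave-outs (-0.047, -0.040 and -0.0047), and Prdx6 in 1 leave-out (-0.085). All 6 leave-outs of Cat ran from -0.047 to 0.29, and those of Prdx6 from -0.085 to 0.29. The number of genes called for genotype was 323, and 0 without the layout term, 0 with labelled sex, 126 in the single-end libraries alone, 1116 without the filter and 770 with DESeq2; leaving out each library gave 119 to 323. Without the layout term 545 genes had an unadjusted p under 0.05, and with labelled sex 381. The related genes called numbered 3, and 0 without the layout term, with labelled sex or in the single-end libraries alone, 7 without the filter and 5 with DESeq2; leave-outs gave 0 to 4. The difference between layouts was called in 2 genes, in 159 without the filter and in 1 with limma-voom. No paired analysis was possible because replicate numbers follow deposition order and pair no samples. Without 1 paired-end library, the other is fitted exactly and adds nothing to the genotype change. The standard errors of the 10 genes had a median of 0.22 on the log2 scale, and their changes ran from 0.05 to 0.49 in size.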
